A study of Mus musculus with 13 samples.

Results

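The mRNAs of 10 nucleolar protein genes were followed through oocyte maturation in single mouse oocytes. The genes were chosen by symbol: Fbl, Npm1, Npm2, Npm3, Ncl, Nop56, Nop58, Nolc1, Dkc1 and Nhp2. All 10 were present among the 18939 genes with estimated counts and among the 49686 genes with FPKM values. All 10 also passed the filter on low counts in every comparison.

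Each of the 13 libraries came from a single oocyte of a C57BL/6 female aged 3 to 4 weeks, collected 48 h after PMSG, a gonadotropin that stimulates follicle growth. Nothing in the sources used here says which female an oocyte came from, so the tests measure the spread between oocytes, which may share an animal. All oocytes had been injected with FBL–GFP and H2B-mCherry mRNA and sorted by the FBL–GFP pattern and the chromatin ring after 6 h in 10 µM Cilostamide, a phosphodiesterase inhibitor that keeps oocytes at the germinal vesicle (GV) stage. There were 3 NSN GV libraries (non-surrounded nucleolus) and 3 SN GV libraries (surrounded nucleolus), and after release from the inhibitor and maturation in vitro to metaphase II (MII) there were 3 NSN-MII and 4 SN-MII libraries. NSN-MII oocytes are thus the NSN oocytes that completed maturation. The injected mRNA carried the mouse fibrillarin coding sequence, so Fbl reads from the injected and from the endogenous mRNA cannot be told apart here. No library lacked the injection.

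The nucleolus makes ribosomal RNA and assembles it into subunits. Fibrillarin (Fbl) is the methyltransferase of box C/D small nucleolar ribonucleoproteins (snoRNPs), where it sits with Nop56, Nop58 and Snu13. Dyskerin (Dkc1) is the pseudouridine synthase of box H/ACA snoRNPs, where it sits with Nhp2, Nop10 and Gar1. Nucleolin (Ncl) binds and remodels pre-rRNA, and Nolc1 is a phosphoprotein that shuttles snoRNPs. Nucleophosmin (Npm1) and Npm2, the oocyte form of the family, are histone chaperones, and Npm3 is a relative of both. In growing oocytes the nucleolus turns into a compact body, and it disassembles when the germinal vesicle breaks down.

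Total estimated counts lay between 7140416 and 8846287 per library, and the 10 genes took between 0.321% and 0.394% of them at GV and between 0.230% and 0.289% at MII. The number of genes detected was 12685 to 13333 in the GV and 11579 to 12511 in the MII libraries, with the fewest in NSN-MII library 3, so that it moved with the stage, and its part in the changes between the stages was not tested. All 13 oocyte markers on the list (such as Gdf9 and Zp3) were detected at both stages, with a summed FPKM of 12129 to 17162 per library at GV and 9862 to 12661 at MII. The 12 cumulus and granulosa cell markers together summed to 28.2 to 38.1 FPKM per library at GV and 39.3 to 65.2 at MII. Of them, 10 were above 0 in any library at GV and 9 at MII, and Foxl2 and Lhcgr were listed at 0 in all libraries. Cyp19a1 was highest, with a mean of 21.2 FPKM at GV and 38.8 at MII. Next came Nr5a2 (7.27 and 3.98) and Kitl (1.88 and 4.29). The part of these markers in the values below was not tested. No spike-in was used, so every level below is relative to the other mRNAs of the same oocyte. Reverse transcription was primed on poly(A) tails, so less mRNA and a shorter tail cannot be told apart.

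FPKM, which corrects for gene length, was used to set the genes beside each other. At GV, Npm2 led with a mean level of 1279 ± 186 FPKM (SD, n = 6), which placed it 57th of all genes by mean FPKM. Npm1 followed at 489 ± 48.4 FPKM and Ncl at 197 ± 18.1 FPKM. No library of Npm2 overlapped with Npm1, of Npm1 with Ncl or of Ncl with Nop56. Nop56 (112 ± 15.4 FPKM), Dkc1 (111 ± 17.6), Nop58 (107 ± 21.4), Fbl (79.3 ± 61.0), Nolc1 (65.8 ± 7.28) and Nhp2 (47.0 ± 11.0) formed a middle group in which each neighbour overlapped with the next. Npm3 lay below all of them at 2.92 ± 1.43 FPKM.

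The order was different at MII. Npm1 was now first at 844 ± 69.9 FPKM (SD, n = 7), Npm2 next at 338 ± 74.8 followed by Dkc1 at 275 ± 33.6, where the libraries of Npm2 and Dkc1 overlapped. Nop56 had a mean level of 187 ± 11.6 FPKM, Nop58 of 128 ± 11.4, Ncl of 123 ± 37.1, Nolc1 of 74.1 ± 16.4 and Fbl of 25.2 ± 20.7. From Nop58 to Fbl each gene overlapped with the next, while Dkc1 did not overlap with Nop56 nor Nop56 with Nop58. Npm3 (2.31 ± 0.93 FPKM) and Nhp2 (2.02 ± 0.79 FPKM) were the lowest and overlapped. By mean FPKM among all genes, Npm2 went from place 57 to 249, Npm1 from 212 to 80, Dkc1 from 1192 to 333 and Nhp2 from 2558 to 8763.

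**Figure D1:**
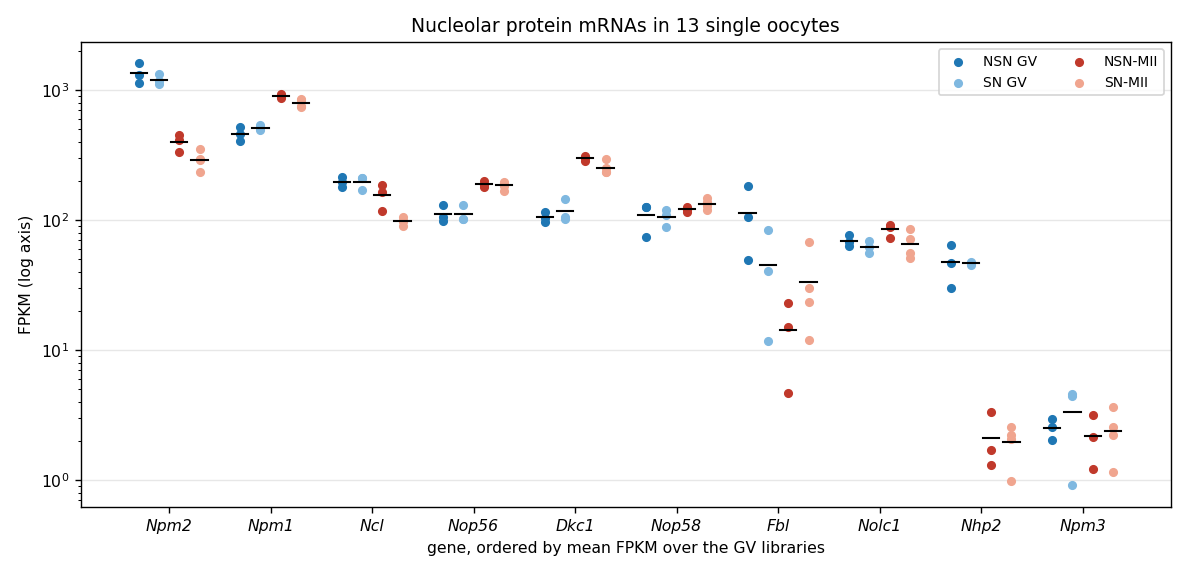
FPKM (log axis) of the 10 genes in each of the 13 single-oocyte libraries, colored by group, with a black line at each group mean. Npm2 and Nhp2 sit lower in both MII groups than in both GV groups, Npm1, Nop56 and Dkc1 sit higher, and the points of Fbl are spread from 4.71 to 184 FPKM.

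One comparison asked how these mRNAs changed between GV and MII, over both types of oocyte. Of the 10 genes, 4 rose (Dkc1, Npm1, Nop56 and Nop58), 4 fell (Nhp2, Npm2, Fbl and Ncl) and 2 (Nolc1 and Npm3) were not called by edgeR's quasi-likelihood test at an adjusted p under 0.05. The stages differed in most genes. Calls were made for 68.6% of 11375 genes, 31.7% as higher and 36.9% as lower at MII, so 8 of 10 was close to the background. The median log2 fold change was −0.05 for the 10 genes and −0.10 for all genes tested. Scaling by library totals alone moved the median of all genes to −0.39 and with it the split of the called members from 4 higher and 4 lower to 2 higher (Npm1 and Dkc1) and 5 lower, with Nolc1 among those that fell. In 5 of the 10 genes, Npm1, Nop56, Dkc1, Npm2 and Nhp2, every MII library lay on the same side of every GV library in CPM (counts scaled to the library total with TMM factors), which was the case for 47.4% of all genes tested.

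**Figure D2:**
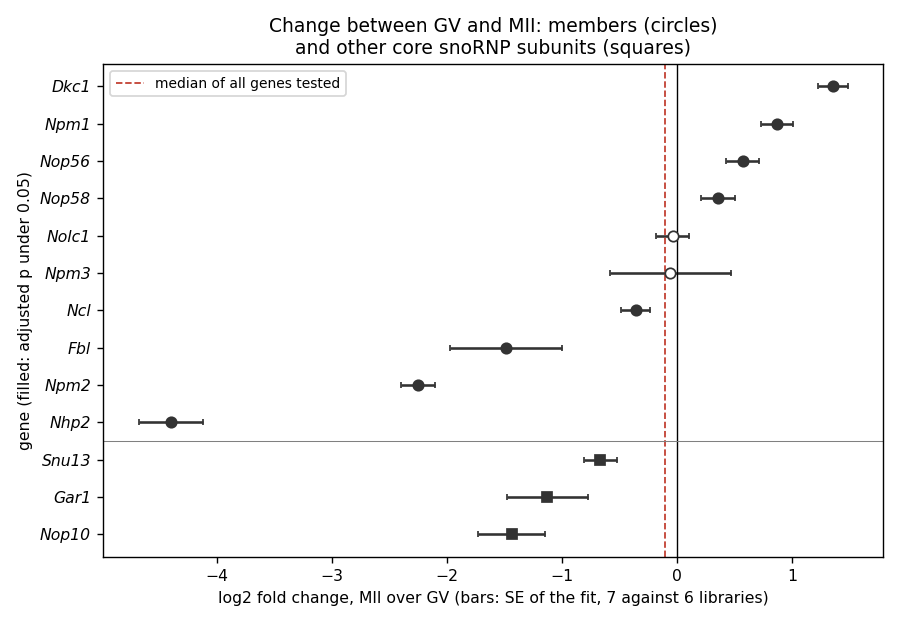
Log2 fold change of MII over GV from edgeR for the 10 genes (circles) and for Snu13, Gar1 and Nop10, the other core subunits of the snoRNPs (squares), with the SE of the fit. Filled symbols have an adjusted p under 0.05, and the dashed line is the median of all genes tested at −0.10. Dkc1 lies at 1.36 and Nhp2, of the same particle, at −4.40.

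Among the nucleoplasmin family, Npm1 and Npm2 moved in opposite directions. Npm2 (chr14:70647302-70659244 in GRCm38, minus strand), which binds core histones in the egg, had CPM values of 990.2, 1465 and 1022 in the NSN GV libraries and 1060.0, 995 and 1113 in the SN GV libraries. They were 287, 220.2 and 298 in the NSN-MII and 234, 203, 202 and 167 in the SN-MII libraries. Every MII library lay below every GV library. The fitted log2 change was −2.25 ± 0.15 (SE), a 4.76-fold fall, with an adjusted p of 8.75e-10 (edgeR's quasi-likelihood test, Benjamini-Hochberg).

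Npm1 (chr11:33152287-33163206, minus strand), the chaperone of granular nucleolar material, had CPM values of 469, 734 and 647 in NSN GV, 740.1, 690.3 and 612 in SN GV, 1039, 1146 and 1362 in NSN-MII and 1171, 1084, 1096 and 1382 in SN-MII libraries. Again the stages did not overlap, with MII higher. The log2 change was 0.87 ± 0.14 (adjusted p = 3.29e-05, edgeR). The ratio of Npm2 to Npm1 in FPKM went from between 2.17 and 3.22 in the GV libraries to between 0.270 and 0.516 in the MII libraries. The estimated count of Npm1 was not a whole number in any of the 13 libraries, which means that RSEM shared some of its reads with other genes.

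Npm3 (chr19:45747734-45749591, minus strand), another family member, was near the limit of detection. Its estimated counts were between 5.23 and 25.8 in all libraries, or 0.59 to 3.11 CPM. The log2 change of −0.06 ± 0.53 was not called (adjusted p = 0.931, edgeR), and the SE leaves room for a change in either direction.

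The box C/D subunits did not move together. Nop56 (chr2:130274430-130279313, plus strand) had CPM values of 145, 229 and 164 in NSN GV, 209, 175 and 156 in SN GV, 251, 235 and 309.9 in NSN-MII and 295, 239, 263 and 280.3 in SN-MII libraries. All MII libraries were above all GV libraries, and the log2 change was 0.57 ± 0.15 (adjusted p = 0.00227, edgeR). With library totals as the only scaling it was 0.28 and was no longer called (adjusted p = 0.0555, edgeR).

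Nop58 (chr1:59684971-59719044, plus strand), its paralog in the same particle, rose less. Its CPM values were 103, 138 and 77.5 in NSN GV, 99.6, 111 and 110.0 in SN GV, 126, 120.3 and 150 in NSN-MII and 144, 127, 139 and 156 in SN-MII libraries. The stages overlapped through NSN GV library 2. The log2 change was 0.36 ± 0.15 (adjusted p = 0.0419, edgeR), and the call was lost in 16 of 19 other settings, among them each of 10 of the 13 fits without 1 library, where the log2 change ranged from 0.27 to 0.47. The ratio of Nop56 to Nop58 in FPKM was 0.773 to 1.48 at GV and 1.25 to 1.56 at MII.

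Fbl (chr7:28169710-28179269, plus strand) fell, and varied more than any other gene of the 10. The NSN GV libraries had 176, 56.1 and 120.4 CPM and the SN GV libraries 42.6, 94.2 and 12.4 CPM. The NSN-MII libraries had 16.7, 5.32 and 31.4 CPM and the SN-MII libraries 14.3, 35.6, 28.5 and 89.3 CPM. The lowest GV library, an SN oocyte, lay below 6 of the 7 MII libraries, and the highest MII library, also an SN oocyte, lay above 3 of the 6 GV libraries. The log2 change was −1.49 ± 0.49, a 2.81-fold fall (adjusted p = 0.0122, edgeR). Without SN GV library 2 it was −1.06 and not called (adjusted p = 0.0602, edgeR). Injected and endogenous Fbl mRNA cannot be told apart in this fall, and the MII oocytes had also matured in vitro after the injection.

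Snu13, the remaining core subunit of box C/D snoRNPs and not one of the 10 genes, fell by 0.66 ± 0.15 on the log2 scale (adjusted p = 0.000718, edgeR). Its CPM values were 152 to 245 at GV, 80.5 to 94.1 in NSN-MII and 161.5 to 226 in SN-MII libraries. The SN-MII libraries thus lay within the GV range. Read as values without a test, the log2 change was −0.20 ± 0.20 in SN and −1.13 ± 0.22 in NSN oocytes. Of the 4 core subunits, 2 thus rose and 2 fell, while 31.7% of all genes tested were called as higher and 36.9% as lower. The rise of Nop58 lost its call in 16 of 19 other settings, and Fbl reads include the injected mRNA.

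In the H/ACA snoRNP, Dkc1 rose while its partner Nhp2 fell. Dkc1 (chrX:75095854-75109777, plus strand) had CPM values of 112, 134 and 134 in NSN GV, 132, 120.2 and 151 in SN GV, 341, 320.3 and 374 in NSN-MII and 352, 291, 293 and 358 in SN-MII libraries. Every MII library lay well above every GV library. The log2 change was 1.36 ± 0.13, a 2.56-fold rise (adjusted p = 1.15e-07, edgeR), the largest rise of the 10 genes.

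Nhp2 (chr11:51619735-51623714, plus strand), a small RNA-binding subunit, had CPM values of 38.1, 62.7 and 28.8 in NSN GV and 45.0, 45.0 and 40.4 in SN GV libraries. At MII they were 3.10, 1.61 and 1.52 in NSN-MII and 2.26, 2.57, 1.97 and 1.09 in SN-MII libraries, from 8 to 26 counts each. No MII library came near the GV range. The log2 change was −4.40 ± 0.28, a 21.1-fold fall (adjusted p = 8.08e-10, edgeR), the largest of the 10 genes in either direction. The ratio of Dkc1 to Nhp2 in FPKM had a median of 2.23 (1.77 to 3.24) in the GV libraries and of 134 (91.1 to 256) in the MII libraries.

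The other H/ACA subunits, Nop10 and Gar1, also fell. Nop10 had 33.0 to 74.4 CPM at GV and 4.22 to 24.6 CPM at MII, and its log2 change was −1.44 ± 0.29 (adjusted p = 0.000364, edgeR). Gar1 had 4.10 to 7.12 CPM at GV and 1.71 to 4.09 CPM at MII, with a log2 change of −1.13 ± 0.35 (adjusted p = 0.00907, edgeR). Dkc1 was therefore the only one of the 4 core H/ACA subunits that was higher at MII, also under the other scalings. Of all genes tested, 31.7% were called as higher and 36.9% as lower.

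The remaining genes are Ncl and Nolc1, of which Ncl fell slightly. Ncl (chr1:86344719-86359400, minus strand) had CPM values of 450.2, 598 and 621 in NSN GV, 647, 651 and 524 in SN GV, 619, 565 and 490.1 in NSN-MII and 367, 385, 364 and 362 in SN-MII libraries. In CPM the 4 SN-MII libraries lay below all others, while the NSN-MII libraries lay within the GV range. In FPKM the SN-MII libraries were again lowest, but NSN-MII libraries 2 and 3 (165 and 118 FPKM) lay below the GV range of 171.5 to 213.5 FPKM. The log2 change over both types was −0.36 ± 0.13 (adjusted p = 0.0193, edgeR). It was −0.33 and not called without SN GV library 1 (adjusted p = 0.0543, edgeR) or without SN GV library 2 (adjusted p = 0.0518, edgeR).

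Nolc1 (chr19:46075863-46085530, plus strand) had 152 to 224 CPM at GV and 133 to 205 CPM at MII, which overlapped almost fully. Its log2 change of −0.03 ± 0.14 was not called (adjusted p = 0.839, edgeR). With library totals alone it was −0.32 and called as lower (adjusted p = 0.0370, edgeR), and in limma on log2(FPKM + 1) it was 0.17 and not called.

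The unit changed the size of some of these differences, since FPKM divides by the length that RSEM assigned to a gene, which was not the same in both stages. This can be read from the number of counts behind 1 FPKM, relative to the median gene of the library. For Npm2 it was 7.17 to 7.23 in the GV libraries and 4.78 to 5.33 in the MII libraries, a ratio of 0.711, and 95.7% of the 4140 genes used for this check shifted less. The mean of Npm2 at MII was therefore 0.264 of the GV mean in FPKM and 0.208 in CPM. The same number also shifted for Nolc1 (ratio 0.784), Nop56 (0.803) and Ncl (1.13), and for Nolc1 the ratio of MII to GV means was 1.12 in FPKM and 0.966 in CPM. For Nhp2 (0.993) and Fbl (1.01) it was nearly the same in both stages.

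The 3′ ends of the annotated transcripts were read because reverse transcription was primed on poly(A) tails and because cytoplasmic polyadenylation during maturation uses short sequence elements near the transcript end. In the GENCODE M21 annotation of GRCm38, the last 50 bases of the principal transcript held AATAAA or ATTAAA, the hexamer of polyadenylation, in 7 of the 10 genes and in 79.4% of 10945 genes tested with a 3′ UTR of at least 50 bases. TTTTAT or TTTTAAT, letters of the cytoplasmic polyadenylation element, were searched in the last 150 bases. Where the 3′ UTR was shorter, as in Nop56 (90 bases) and Fbl (114 bases), the search covered the 3′ UTR alone. These letters stood there in 1 of the 10 genes, Dkc1, and in 25.2% of the 10945 genes. Outside the 10 genes, Gar1, which fell, also held TTTTAT and AATAAA, while Snu13 and Nop10 held none of the letters. Only the transcript strand was searched. The stretches around the hexamer are shown for Dkc1, which rose most, for the 2 other genes that rose and have one, and for Npm2 and Fbl, which fell, with the matched letters in capitals. In Dkc1 (chrX:75109738-75109767, plus strand) TTTTAT overlaps ATTAAA, and both are in capitals. The others are from chr2:130279277-130279306, plus strand (Nop56), chr1:59711473-59711502, plus strand (Nop58), chr14:70647304-70647333, minus strand (Npm2), and chr7:28179239-28179268, plus strand (Fbl). All lie in the 3′ UTR of the last exon.
Dkc1: gagagaatatTTTTATTAAAagtctgaggt
Nop56: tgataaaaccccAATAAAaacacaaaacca
Nop58: ctttgatacacaAATAAAatattttctttg
Npm2: gcctagggccacAATAAAatttgcatgatc
Fbl: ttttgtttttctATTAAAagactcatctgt
The windows of Npm1, Ncl and Nhp2 held neither hexamer. Whether oocytes use the annotated ends was not tested, and a match is a description of these letters.

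The values of each type of oocyte were read from the same fit, as values without a test. Dkc1 had a log2 change of 1.27 ± 0.18 in SN and 1.44 ± 0.19 in NSN oocytes, Npm1 of 0.80 ± 0.19 and 0.94 ± 0.20, Npm2 of −2.39 ± 0.19 and −2.11 ± 0.21, and Nhp2 of −4.45 ± 0.37 and −4.35 ± 0.41. These pairs lay within their errors of each other. For Fbl the change was −0.25 ± 0.65 in SN and −2.73 ± 0.75 in NSN oocytes, and for Ncl −0.72 ± 0.17 in SN and 0.004 ± 0.185 in NSN oocytes. Over 19 other settings the change of Ncl ranged from −1.01 to −0.665 in SN and from −0.35 to 0.098 in NSN oocytes. The test of the differences between the types is the interaction given below.

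Another comparison asked whether NSN and SN GV oocytes differed. None of the 10839 genes tested was called (0.0%) by edgeR's quasi-likelihood test, while 190 (1.75%) had an unadjusted p under 0.05. DESeq2 called 0 genes and limma on log2(FPKM + 1) called 1. None of the 10 genes was called or had an unadjusted p under 0.05, and none had groups that did not overlap, against 6.57% of all genes tested. Their median log2 difference, NSN over SN, was 0.01, as it was for all genes.

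The largest difference among them was that of Fbl, whose mRNA is the one that was injected. The types were sorted by the pattern of the FBL–GFP protein made from that mRNA, and the paper reports less of this protein in SN oocytes. A difference in Fbl reads between the types may therefore not be independent of the sorting. In CPM, Fbl was 117 ± 59.9 in NSN GV and 49.7 ± 41.3 in SN GV oocytes (SD, n = 3 each). The NSN library with the least, at 56.1 CPM, lay below the SN library with the most, at 94.2 CPM. The log2 difference was 1.31 ± 0.65 (adjusted p = 1.0, edgeR), and it ranged from 0.81 to 2.13 when each library was left out in turn. Npm3 followed with −0.52 ± 0.72. The other 8 genes lay between −0.13 (Npm1) and 0.18 (Nolc1), with SEs of 0.16 to 0.29.

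The last of these comparisons asked the same of the MII oocytes that came from each type. Of 10028 genes tested, 26 (0.259%) were called by edgeR, 1 as higher and 25 as lower in NSN-MII, and 941 (9.38%) had an unadjusted p under 0.05. The count was 233 without NSN-MII library 3, in which the fewest genes were detected. It was 2 without NSN-MII library 1 and 5 without NSN-MII library 2. It was 35, 7, 4 and 9 without SN-MII library 1, 2, 3 and 4, respectively. None of the 10 genes was among the 26. Ncl and Npm2 had an unadjusted p under 0.05, and only in Ncl did the groups not overlap, against 10.2% of all genes tested.

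Ncl was the gene of the 10 that came nearest to a call. With 619, 565 and 490.1 CPM in NSN-MII and 362 to 385 CPM in SN-MII, the lowest NSN-MII library lay above the highest SN-MII library. The group means were 558 ± 64.7 (SD, n = 3) and 369 ± 10.9 CPM (SD, n = 4), and the log2 difference was 0.59 ± 0.14 (adjusted p = 0.134, edgeR). DESeq2 called it (adjusted p = 0.0104), and so did edgeR without NSN-MII library 3 (log2 difference 0.69, adjusted p = 0.0161), but none of the 12 other settings did. In FPKM the NSN-MII libraries had 186, 165 and 118 and the SN-MII libraries 90.9 to 106.

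Npm2 had 268 ± 42.2 CPM in NSN-MII and 201 ± 27.5 CPM in SN-MII oocytes, with 1 NSN-MII library (220.2 CPM) inside the range of SN-MII. The log2 difference was 0.41 ± 0.17 (adjusted p = 0.454, edgeR). Fbl, whose mean was higher in NSN at GV, had 17.8 ± 13.1 CPM in NSN-MII and 41.9 ± 32.8 CPM in SN-MII. The log2 difference of −1.26 ± 0.62 was not called (adjusted p = 0.564, edgeR), and it was −0.58 without SN-MII library 4. At MII too, Fbl reads include the injected mRNA whose protein was used to sort the types. For the other 7 genes the differences lay between −0.12 (Npm3) and 0.26 (Nolc1), with overlap of the groups in each.

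Beside the 10 genes, Snu13 was the only gene of the nucleolar lists that was called at MII. Its CPM values were 80.5, 92.5 and 94.1 in NSN-MII and 161, 171, 172 and 226 in SN-MII, so the groups did not overlap. The log2 difference was −1.04 ± 0.17 (adjusted p = 0.0406, edgeR). The call was lost in 7 of 14 other settings, with adjusted p between 0.0839 and 0.248: with the replicate number as a block, in limma, and without NSN-MII library 1 or 2 or SN-MII library 2, 3 or 4. In these the log2 difference was between −1.08 and −0.92. At GV the same gene had 152 to 245 CPM in NSN and 193 to 236 CPM in SN oocytes.

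**Figure D3:**
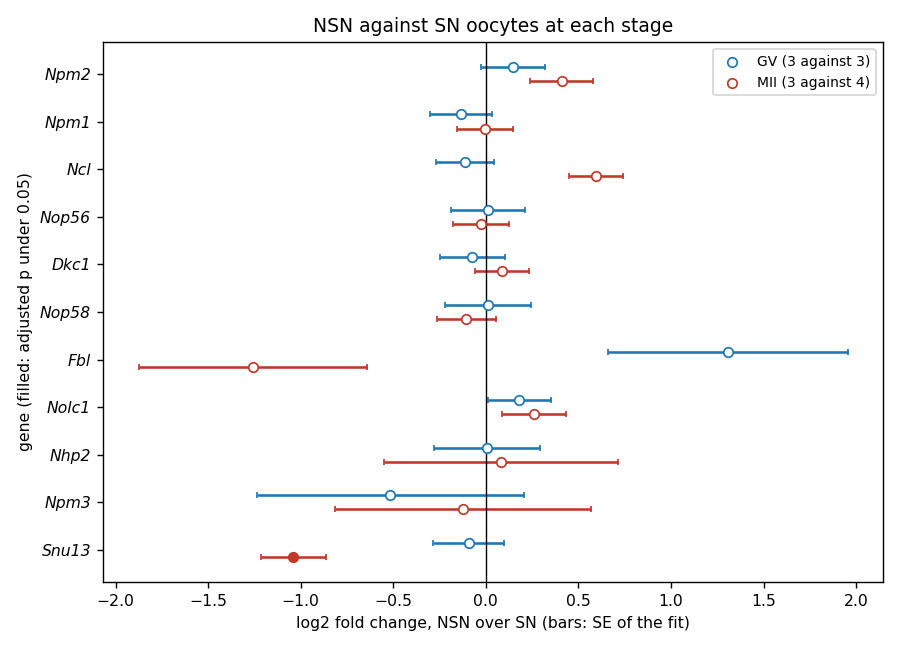
Log2 difference of NSN over SN at GV (blue) and at MII (red) for the 10 genes and Snu13, with the SE of the fit. Only Snu13 at MII is filled, at −1.04 (adjusted p under 0.05), while Fbl lies at 1.31 at GV and at −1.26 at MII with the widest bars beside those of Npm3 and Nhp2.

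The interaction of type and stage tested whether the NSN to SN difference itself differed between GV and MII. It was called for 2 of 11375 genes (0.0176%) by edgeR, and 606 (5.33%) had an unadjusted p under 0.05. None of the 10 genes was called, and 2 of them, Fbl and Ncl, were among the 606. Fbl reads include the injected mRNA whose protein was used to sort the types. Fbl had an interaction of −2.49 ± 0.99 on the log2 scale (adjusted p = 0.823, edgeR) and Ncl of 0.72 ± 0.25 (adjusted p = 0.738, edgeR). For Snu13 it was −0.93 ± 0.29 (adjusted p = 0.645, edgeR). In DESeq2, which called 39 genes, none of the 10 was called either.

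Oocytes of the same group differed to very different degrees from gene to gene. The SD of log2(CPM + 0.5) between libraries of the same group, pooled over the 4 groups, was 1.16 for Fbl, and 97.9% of all genes tested had a smaller one. The median of all genes was 0.46. Fbl was as variable at GV (1.18) as at MII (1.14), and its highest library was 14.1 times its lowest at GV and 16.8 times at MII in CPM. Its estimated counts were between 42.8 and 1672 per library. The FPKM ratio of Fbl to Nop56, its partner in the particle, accordingly went from 0.116 to 1.88 over the GV libraries and from 0.0263 to 0.369 over the MII libraries. The count of Fbl was not whole in all 13 libraries, so that some of its reads were shared with other genes. The related Fbll1 had at most 0.08 FPKM in any library. How much of the spread came from the injected mRNA was not tested.

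Most of the other genes were among the steadiest. Dkc1 had an SD of 0.15, with 1.1% of genes below it, and Ncl of 0.17, with 2.1% below. Npm1, Nolc1, Npm2, Nop56 and Nop58 had SDs of 0.21 to 0.23. The ranking took no account of abundance. By mean FPKM at GV, these genes, Dkc1 and Ncl stood between place 57 (Npm2) and place 1972 (Nolc1) of all genes. How far their low SDs went with abundance was not tested. Nhp2 (0.42) lay a little under the median of all genes, and Npm3 (0.61), which rests on few counts, above it.

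**Figure D4:**
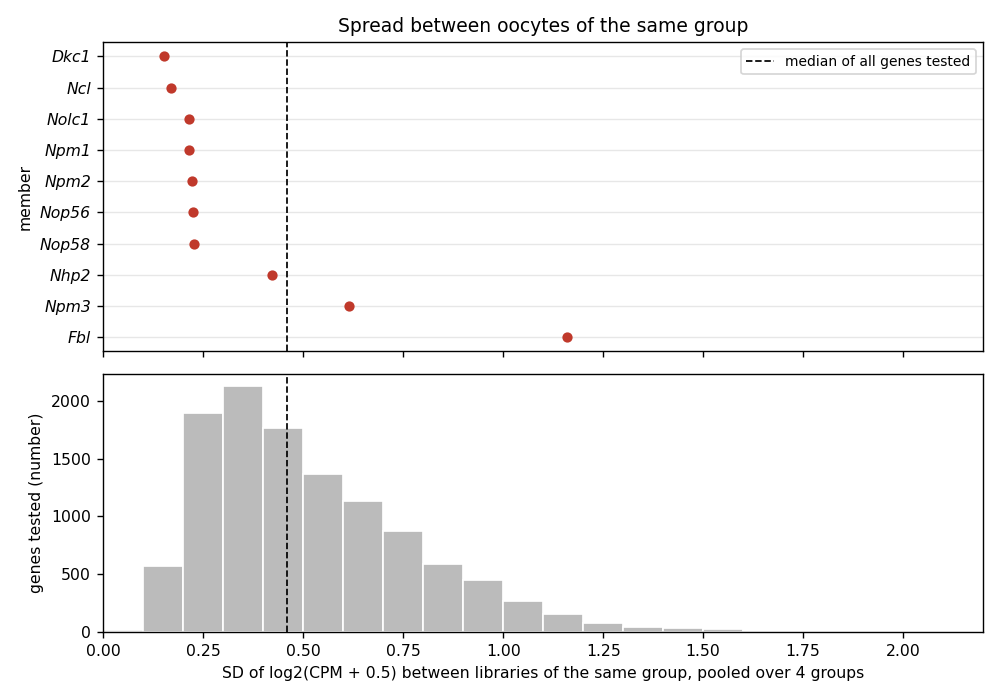
Upper panel, SD of log2(CPM + 0.5) between libraries of the same group for each of the 10 genes. The lower panel is a histogram of the same SD over all genes tested, with the median as a dashed line at 0.46. Fbl stands at 1.16, and 7 of the other genes lie between 0.15 and 0.23.

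Other genes of nucleolar function were described by lists, in counts and medians. Of 40 genes of the small subunit processome, the particle that matures the 18S rRNA precursor, 6 rose, 26 fell and 8 were not called between GV and MII by edgeR, with a median log2 change of −1.18. The share that fell in all genes tested was 36.9%. Fcf1, its endonuclease-like subunit, had the largest fall, −6.21 ± 0.26, from 130.0 to 241 CPM in GV libraries to 1.52 to 3.93 CPM in MII libraries. Nol10 had the largest rise, 1.54 ± 0.15.

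Of 37 large subunit assembly factors tested, 4 rose, 24 fell and 9 were not called, with a median of −0.95. Nle1, a ligand of the remodelling ATPase of pre-60S particles, fell by 4.81 ± 0.60 on the log2 scale, and Rrp1b rose by 0.91 ± 0.13. Nle1 had 0 to 10 counts per MII library, and its log2 change ranged from −5.94 to −2.795 over 19 other settings. Among 13 genes of the nuclear exosome and its cofactors, which trim RNA ends, 1 rose (Mphosph6, 1.33 ± 0.17), 5 fell (Exosc5 most, −4.84 ± 0.41) and 7 were not called, with a median of −0.53. Here 5 of 13 was close to the 36.9% of all genes that fell, and 6 of 13 called was below the 68.6% of all genes. Exosc5 had 2 to 19 counts per MII library, so the size of its fall rests on few counts.

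The factors that assemble the snoRNPs had the lowest median of the 6 nucleolar lists. Of 10 tested, 1 rose, 6 fell and 3 were not called, and the median log2 change was −1.87. Pih1d1, a subunit of the R2TP chaperone complex that builds box C/D particles, fell by 4.38 ± 0.40 on the log2 scale, from 27.4 to 41.2 CPM at GV to 0.12 to 3.21 CPM at MII. Its estimated counts were 1 to 25 per MII library. Shq1, the chaperone that holds dyskerin before it is assembled, rose by 1.22 ± 0.26, from 5.57 to 9.18 CPM at GV to 10.5 to 28.5 CPM at MII. The chaperone of Dkc1 and Dkc1 itself were thus both higher at MII, as were 31.7% of all genes tested, and a link between them was not tested. Of the 107 other genes of the nucleolar lists 102 were tested, of which 12 (11.8%) rose and 64 (62.7%) fell, beside 31.7% and 36.9% of all genes tested. The oocyte markers, which are not nucleolar, had 3 higher and 7 lower of 13 and a median of −1.13, so a lower median was not particular to the nucleolar lists. Between NSN and SN, no gene of the lists was called at GV, and Snu13 alone was called at MII.

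**Figure D5:**
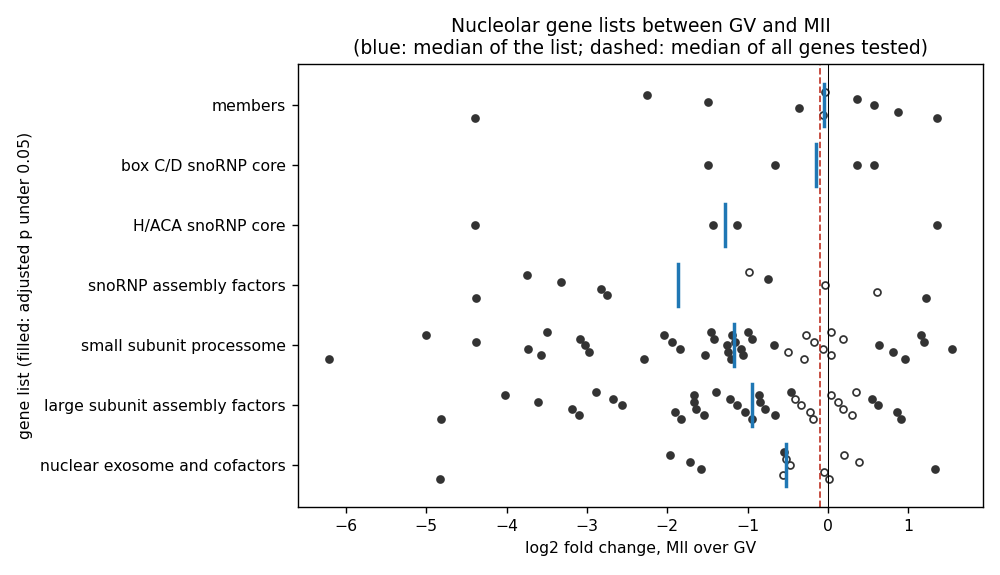
Log2 fold change of MII over GV for every tested gene of the 10 members and of 6 lists of nucleolar function, filled where the adjusted p was under 0.05, with the median of each list in blue. The dashed line is the median of all genes tested at −0.10. The medians run from −0.05 for the members to −1.87 for the snoRNP assembly factors, and the members' points reach from −4.40 to 1.36.

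For Fbl, Npm1 and Npm2, the genes of the most similar pattern were found by the root mean square difference of log2 CPM, centred for each gene, over the 13 libraries and among the 11375 genes tested. Npm1 had close neighbours: Hnrnpc at 0.08, and Vta1 and Nup88 at 0.09. Those of Npm2 were Oas1h at 0.13, Prkrip1 at 0.16 and Npffr2 at 0.17. For Fbl, whose reads include the injected mRNA, the closest were Gadd45b at 0.72, Pkp2 at 0.74 and Pars2 at 0.87. These 3 genes rest on few counts, from 1 to 56, 0 to 50 and 5 to 95 per library. The measure was not scaled by the spread of a gene, so a gene as variable as Fbl tends to lie far from all others. A steady gene such as Npm1 tends to lie near some.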

How the data were processed

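RNA of 13 single oocytes was amplified with SMART-seq2, and Nextera libraries were sequenced. The authors trimmed reads (Trim Galore 0.4.4), mapped them to mm10 (Bowtie2 2.3.5) and quantified genes with RSEM 1.2.28. The authors deposited RSEM expected counts, 1 table per stage, and FPKM values in 1 table of all libraries, both by gene symbol. Reads of near-identical copies are shared between genes by RSEM, which gave values that are not whole. Neither a strand-specific step nor molecular identifiers are named, so overlapping genes cannot be separated, and amplification adds error beyond counting.

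Groups followed the sample labels. No pair of libraries was a copy. Counts were rounded, filtered with filterByExpr, scaled by TMM and tested with edgeR 4.0.16 (R 4.3.3) over all genes, with Benjamini-Hochberg adjustment and calls at an adjusted p under 0.05. NSN and SN were compared within each stage. MII against GV and the interaction used 1 fit of all libraries. The common biological coefficient of variation was 0.352 at GV and 0.344 at MII. CPM are counts over TMM-scaled totals of all 13 libraries, and the SD used an offset of 0.5. Alternatives were DESeq2 1.42.0, its size factors, library totals, no filter, limma 3.58.1 on log2(FPKM + 1) with a minimum mean of 1 FPKM, a 1.5-fold minimum, the replicate number as a block, all libraries in 1 fit, and each library left out. The steps were tested on simulated data.

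Named were the 10 members, Snu13, Nop10 and Gar1, the called gene with the largest rise and fall of each other list, list genes called between NSN and SN or in the interaction, and the 3 nearest patterns of Fbl, Npm1 and Npm2. Members and lists were chosen with earlier results of these data known. Lists were described by counts and medians, with no set test. Coordinates and transcript ends are from GENCODE M21 (GRCm38, the assembly of mm10), matched by symbol. The annotation release used by the authors is not given in the sources used here. Raw reads and images were not analysed here.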

Additional observations from a re-analysis of the deposited data

Results flagged for a closer look

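Of 39 sets of CPM values examined for single libraries far from the rest of their group or stage, 5 held one (Dixon's criterion at the 95% level). For normally distributed values, chance alone meets it in about 1 in 20 sets. That rate may not hold here, since CPM was taken without a log and the SN-MII sets lay inside the MII sets. Whether the same libraries stand out on the log2 scale was not tested. Fbl in SN-MII library 4 was 89.3 CPM, with the 6 other MII libraries between 5.32 and 35.6 CPM. The same library had the highest Snu13 value, 226 CPM, with the other SN-MII libraries between 161 and 172 CPM.

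Npm2 in NSN GV library 2 was 1465 CPM, against 990.2 to 1113 CPM in the 5 other GV libraries, and Nop10 in the same library was 74.4 CPM, against 33.0 to 48.1 CPM. In NSN-MII library 3, Nop10 was 4.22 CPM, with the 6 other MII libraries between 17.2 and 24.6 CPM.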

How the results depend on the processing

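Log2 values here carry more decimals where they lie near 0. Between GV and MII, 8 of the 10 genes were called, and 7 under DESeq2, its size factors, library totals, no filter, the replicate block and limma. With a fold minimum of 1.5 it was 5 (Dkc1, Npm1, Npm2, Nhp2 and Fbl), and without single libraries 5 to 8, with 5 without SN GV library 2. Dkc1, Npm1, Npm2 and Nhp2 kept their direction and their calls in all 19 alternatives, Fbl and Nop56 in 18, Ncl in 17 and Nop58 in 3. Nolc1 turned to 0.17 in limma and ranged from −0.11 to 0.031 without single libraries, and Npm3 from −0.28 to 0.10, neither called.

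At GV the count of called genes was 0 in all alternatives except limma, with 1. At MII it was 26 and became 217 in DESeq2, 16 with library totals, 89 without a filter, 2 with the replicate block, 4 in limma, 69 with all libraries in 1 fit and 2 to 233 without single libraries. Of the 10 genes, 0 were called there, 1 in DESeq2 (Ncl) and 0 to 1 without single libraries. Of the other nucleolar genes 1 was called (Snu13), 3 in DESeq2, 3 without a filter, 0 with the block, 0 in limma, 2 in 1 fit and 0 to 8 without single libraries. For the interaction the count of 2 became 39 in DESeq2, of which 1 on the nucleolar lists, 6 without a filter, 1 in limma and 0 to 12 without single libraries. The cause was not tested.

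Differences near 0 between NSN and SN changed sign, none of them called. At MII, Npm1 became 0.029 with library totals, 0.068 with the replicate block and 0.17 in limma, Nop56 became 0.0029 with library totals and 0.019 in limma, and Nhp2 became −0.19 with the block. At GV, without a filter, with the block and in 1 fit, Nop56 became −0.00032, −0.0011 and −0.0030, Nop58 −0.0011, −0.025 and −0.0082, and Nhp2 −0.0042, −0.062 and −0.0082. In limma at GV, Nop56 was −0.013 and Nhp2 −0.049. Without single libraries, the ranges at GV were −0.032 to 0.24 for Npm2, −0.18 to 0.12 for Nop56, −0.19 to 0.20 for Nop58, −0.17 to 0.044 for Dkc1 and −0.33 to 0.24 for Nhp2. At MII they were −0.10 to 0.074 for Npm1, −0.52 to 0.17 for Npm3, −0.14 to 0.041 for Nop56 and −0.34 to 0.26 for Nhp2.

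Nothing in the sources used here says what same-numbered libraries of the groups share beyond the number. Their deviations from the group means correlated at −0.44 to −0.18 at GV and at −0.11 to 0.086 at MII. With so few libraries per group, these correlations cannot show whether same-numbered oocytes shared an animal or a session. The block called 7452 genes between the stages, against 7800 without it, and of the 10 genes it lost Nop58 alone. The estimated counts were 5.23 to 25.8 for Npm3 in all libraries and 8 to 26 for Nhp2 at MII, and the size of difference that could be detected from them was not tested. The settings meant for genes found in the FPKM table alone were not run, since all 10 genes have counts.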
